A study of Mus musculus with 9 samples.

Results

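Messenger RNA of 10 genes of T cells and natural killer (NK) cells was followed across the lungs of mice that carried a human CFTR transgene and of their wild-type controls. The genes were Cd3e, Cd3g, Cd8a, Cd8b1, Lck, Gzma, Nkg7, Prf1, Ccl5 and Klrd1, and every probe set of an Affymetrix mouse 430A array annotated to 1 of these symbols was taken. A probe set is the group of short probes that reports 1 transcript, and its level is given as intensity, the brightness of the array on a linear scale. The rule found 11 probe sets of 22690, for 9 of the 10 genes, among 12393 genes with a probe set of their own. Lck had no probe set in the annotation used and was not analysed here.

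The study measured lung RNA of adult FVB/N mice on 9 arrays, 3 in each of 3 groups. HO mice carried SP-C-hCFTR on 2 alleles, HE mice carried it on 1 allele, and WT mice carried none. The transgene is a normal human CFTR cDNA, driven by the promoter of the surfactant protein C gene (Sftpc), which acts in respiratory epithelial cells. HO and HE mice kept wild-type mouse Cftr (mCftr+|+), as did WT mice 1 and 2, while the genotype field of the third WT sample is empty. The study asked what increased expression of normal human CFTR does to lung mRNA. One label conflict concerns HO replicate 2: title and genotype field assign it 2 alleles, whereas the description assigns it 1. It was treated as HO. Several differences moved without it or with it moved to HE, and values for many of them under those settings stand beside them or in the closing section. Not every such value is given: that of HO minus HE of Klrd1 with this array moved to HE, which also moved, is not. The labels do not say that each array came from a separate mouse, so the spread between arrays may be partly technical.

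T cells recognise antigen through a receptor that signals by the CD3 chains, encoded by Cd3e, Cd3g and others. Cytotoxic T cells add the CD8 coreceptor, a dimer of the products of Cd8a and Cd8b1, which binds MHC class I. Cytotoxic T cells and NK cells kill target cells by releasing granules that hold perforin (Prf1), which opens pores, and granzymes such as granzyme A (Gzma). Both cell types are found in the lung and can secrete the chemokine Ccl5.

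Promoter sequences are shown for 4 members that differ in how they varied across the arrays: Gzma, Nkg7, and the CD3 pair Cd3e and Cd3g, which lie on chromosome 9 with only Cd3d starting between them among protein-coding genes. The RefSeq table of assembly GRCm38.p6 held promoters for 7 of the 10 members, as windows from 250 bases before to 50 bases after the start. The windows below are chr13:113100932-113101231 (minus strand) for Gzma, chr7:43436888-43437187 (plus strand) for Nkg7, chr9:45009562-45009861 (minus strand) for Cd3e and chr9:44980382-44980681 (minus strand) for Cd3g. Capitals mark matches, on either strand, to the T-box motif TCACAC, the RUNX motif TGTGGT or the ETS motif AGGAAG.
Gzma: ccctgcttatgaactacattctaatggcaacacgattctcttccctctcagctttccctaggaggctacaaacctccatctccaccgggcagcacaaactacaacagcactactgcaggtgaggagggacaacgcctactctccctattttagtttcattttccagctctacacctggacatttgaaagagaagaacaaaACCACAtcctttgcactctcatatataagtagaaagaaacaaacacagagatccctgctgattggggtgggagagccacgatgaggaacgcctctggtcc
Nkg7: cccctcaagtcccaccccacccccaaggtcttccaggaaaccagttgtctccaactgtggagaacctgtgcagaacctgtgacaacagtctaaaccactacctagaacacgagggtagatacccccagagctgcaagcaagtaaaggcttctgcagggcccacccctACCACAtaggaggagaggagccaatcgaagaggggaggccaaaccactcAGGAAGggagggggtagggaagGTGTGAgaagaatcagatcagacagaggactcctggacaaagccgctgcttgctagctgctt
Cd3e: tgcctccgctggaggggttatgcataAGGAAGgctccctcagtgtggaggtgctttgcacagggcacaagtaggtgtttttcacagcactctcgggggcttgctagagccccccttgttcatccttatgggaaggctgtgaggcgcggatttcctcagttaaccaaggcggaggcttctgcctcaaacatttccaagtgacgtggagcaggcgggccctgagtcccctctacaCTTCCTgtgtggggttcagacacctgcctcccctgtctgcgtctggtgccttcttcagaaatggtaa
Cd3g: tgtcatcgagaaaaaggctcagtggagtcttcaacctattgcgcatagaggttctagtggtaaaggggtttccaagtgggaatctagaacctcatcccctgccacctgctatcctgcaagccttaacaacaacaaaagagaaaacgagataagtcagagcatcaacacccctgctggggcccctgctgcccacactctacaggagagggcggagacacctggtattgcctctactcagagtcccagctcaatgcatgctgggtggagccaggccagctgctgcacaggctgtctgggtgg
Gzma holds 1 RUNX match, Nkg7 holds a RUNX, an ETS and a T-box match, Cd3e holds 2 ETS matches, and the Cd3g window holds none of these letters. Such short motifs are common: among 32851 promoters of the same length, 14.5% held the T-box motif, 16.8% the RUNX motif and 35.4% the ETS motif. A match is a description of the letters and not of a bound site.

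The arrays were alike in scale, with median intensities of 697.1 to 741.75, and the RNA was that of lung. Sftpc, Sftpb, Scgb1a1 and Ager, made by alveolar and airway epithelial cells, were above the 99.0th percentile of each array at their brightest probe set. Rag1, which marks developing T cells of the thymus, lay between 8.5 and 75.6 in intensity. The other thymocyte genes Dntt and Ptcra, at their brightest probe sets, lay between 226.9 and 413.4 and between 61.3 and 441.5, and were also below the filter on low values. Both probe sets of Cd4, the coreceptor of helper T cells, were dim, at 121.2 to 169.3 and 13.8 to 57.3. Of the 11 member probe sets, 8, from 7 genes, passed the filter on low values and were tested with limma among 13576 probe sets. The 2 probe sets of Cd8a and the 1 of Cd8b1 were below it, and their tests come from a fit without the filter.

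**Figure D1:**
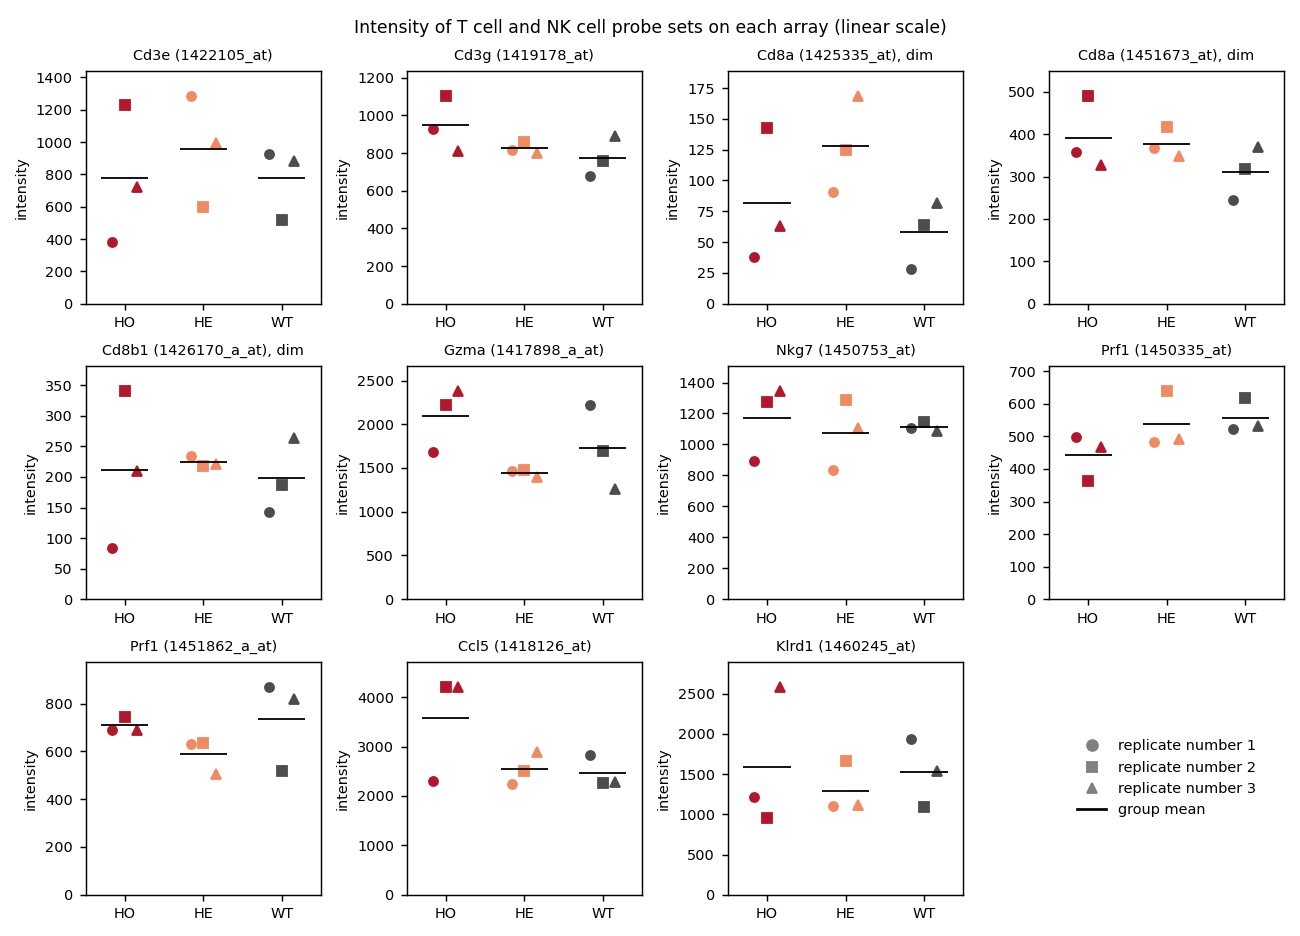
Intensity (linear axis from 0) of the 11 member probe sets on each of the 9 arrays, with HO, HE and WT side by side, a symbol for each replicate number and a line at each group mean. Only Prf1 at 1450335_at separates HO from WT, Gzma and Prf1 at 1451862_a_at separate HO from HE, and the dim Cd8a probe set 1425335_at separates HE from WT.

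The CD3 chains did not separate the genotypes. Cd3g (1419178_at) had intensities of 930.5, 1105.6 and 811.7 in HO lungs, 816.1, 861.6 and 801 in HE lungs, and 679.7, 758.1 and 891.7 in WT lungs. HO lungs 1 and 2 held the 2 highest values, but the third HO lung was below the third WT lung, so the groups overlap. The log2 difference was 0.29 ± 0.15 (SE) for HO minus WT, with a 95% interval of -0.04 to 0.62 and an adjusted p of 0.992. It was 0.17 without HO array 2, and HO minus HE, 0.19 ± 0.15, was -0.03 with that array moved to HE. HO minus WT had the opposite sign in 0 of 15 alternatives. Its unadjusted p, 0.082 in the main fit, was under 0.05 after quantile normalization, after median centring, and without HO array 3 or WT array 3. Fewer T cells and less RNA per cell cannot be told apart in lung RNA, here or for any gene below.

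Cd3e (1422105_at) varied more than any other tested member, with a highest intensity 3.39 times the lowest. It had 380.2, 1230.4 and 724.9 in HO lungs, 1287.3, 596.3 and 993.5 in HE lungs, and 924, 518.3 and 881.4 in WT lungs. Lowest and near-highest values both fell among the HO arrays, and every pair of groups overlaps. The log2 difference was -0.11 ± 0.40 (SE) for HO minus WT (95% interval -0.99 to 0.78), 0.28 ± 0.40 for HE minus WT and -0.39 ± 0.40 for HO minus HE. With 1 array left out, HO minus WT ran from -0.51 (without HO array 2) to 0.33 and HO minus HE from -0.80 (without HO array 2) to 0.05. With HO array 2 moved to HE, HO minus HE of Cd3e was -0.91 (unadjusted p = 0.025, adjusted p = 1). Although their products join the same receptor, Cd3e and Cd3g showed no detectable correlation over the 9 arrays (Pearson r = 0.08, exact permutation p = 0.844, Spearman rho = 0.00).

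The CD8 coreceptor was near the dim end of the array. Cd8a at 1451673_at had 357.3, 491.3 and 327.4 in HO lungs, 366.8, 417.5 and 349.4 in HE lungs, and 246, 319 and 368.8 in WT lungs. At 1425335_at it had 37.8, 142.8 and 63.4 in HO lungs, 90.6, 125.1 and 168.9 in HE lungs, and 28.2, 63.5 and 81.9 in WT lungs. At this dimmer probe set each HE lung was above each WT lung, which was also true, in either direction, of 8.44% of all 22626 probe sets. The HE minus WT difference there was 1.24 ± 0.57 on the log2 scale (SE, unadjusted p = 0.066, adjusted p = 1), against 0.30 ± 0.20 at the other probe set. Cd8b1 (1426170_a_at) had 83.9, 340.4 and 209.2 in HO lungs, 233.6, 217.6 and 221 in HE lungs, and 142.7, 187.3 and 263.4 in WT lungs, so that the HO lungs spanned both extremes. None of these 3 probe sets passed an adjusted p of 0.05 in any comparison of genotypes, where 0% of the 22626 passed for HO minus WT, 0.00884% for HE minus WT and 0.00884% for HO minus HE.

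Among the granule genes, Gzma had the lowest p, between HO and HE. Gzma (1417898_a_at) had 1683.5, 2216.1 and 2378.5 in HO lungs, 1465.3, 1476.2 and 1396 in HE lungs, and 2214.9, 1692 and 1262.4 in WT lungs. Every HO lung was above every HE lung, the HE lungs were close together, and the WT lungs spread across both. The HO minus HE difference was 0.52 ± 0.20 on the log2 scale (SE, 95% interval 0.08 to 0.96), a fold of 1.43, with an unadjusted p of 0.025 and an adjusted p of 1. The HO minus WT difference was 0.30 ± 0.20 and the HE minus WT difference was -0.22 ± 0.20, and both intervals include 0. Both moved with single WT arrays: HO minus WT was 0.50 without WT array 1 and 0.10 without WT array 3, and HE minus WT was -0.02 without WT array 1 and -0.42 without WT array 3. With HO array 2 moved to HE, the HO minus HE difference of Gzma was 0.32 (unadjusted p = 0.235), and without that array it was 0.47 (unadjusted p = 0.070).

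Prf1 was measured by 2 probe sets that did not give the same picture. At 1450335_at it had 496.9, 363.7 and 466.4 in HO lungs, 482.8, 638.9 and 491.5 in HE lungs, and 523.7, 616.6 and 533 in WT lungs. The mean log2 there was 8.98, close to the filter on low values (8.90). The HO mean, 8.78, lay below the filter, and the HE and WT means, 9.06 and 9.12, lay above it. Each HO lung was below each WT lung, and the HO minus WT difference was -0.34 ± 0.16 (SE, unadjusted p = 0.059, adjusted p = 0.992). HO array 2 was the lowest, and without it or with it moved to HE the difference was -0.21, while HO minus HE, -0.28 ± 0.16, was -0.15 without it and -0.01 with it moved to HE. At 1451862_a_at it had 690.7, 745.6 and 689.7 in HO lungs, 629, 636.9 and 506.9 in HE lungs, and 870.7, 518.2 and 817.1 in WT lungs. There the HO lungs lay within the WT range, the HO minus WT difference was -0.02 ± 0.19 (0.04 after quantile normalization or median centring), and it was the HO and HE lungs that did not overlap (0.27 ± 0.19, unadjusted p = 0.185, and 0.15 with HO array 2 moved to HE). HE minus WT was -0.29 ± 0.19, and -0.52 without WT array 2 (unadjusted p = 0.006).

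Nkg7 (1450753_at), which encodes a membrane protein of cytotoxic granules, had 891.7, 1277.1 and 1344.3 in HO lungs, 837.3, 1285.1 and 1108.3 in HE lungs, and 1103.1, 1145.5 and 1087.9 in WT lungs. The WT lungs were nearly equal and fell inside the range of both transgenic groups. Its log2 differences were 0.05 ± 0.19 for HO minus WT, -0.07 ± 0.19 for HE minus WT and 0.12 ± 0.19 for HO minus HE.

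Klrd1 (1460245_at), which encodes CD94, the partner of NKG2 receptors on NK cells, had 1210, 954.3 and 2587.3 in HO lungs, 1102.4, 1667.2 and 1117.4 in HE lungs, and 1938.3, 1087.8 and 1539.4 in WT lungs. HO lungs held both its lowest and its highest value, 2.71 times apart. Its log2 differences were -0.04 ± 0.34 for HO minus WT (0.01 after median centring), -0.22 ± 0.34 for HE minus WT and 0.18 ± 0.34 for HO minus HE.

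Ccl5, the chemokine of the group, had the largest HO minus WT difference among the tested members. Ccl5 (1418126_at) had 2301.6, 4213.3 and 4210.8 in HO lungs, 2234.8, 2502.5 and 2883.5 in HE lungs, and 2831.5, 2267.7 and 2277.8 in WT lungs. HO lungs 2 and 3 stood above all other arrays, while HO lung 1 lay among the HE and WT lungs, so the groups overlap. The HO minus WT difference was 0.49 ± 0.22 on the log2 scale (SE), a fold of 1.41, with an unadjusted p of 0.049 and an adjusted p of 0.992. It was 0.78 without HO replicate 1 (unadjusted p = 0.000722, adjusted p = 0.999) and 0.35 without HO replicate 2 or without HO replicate 3 (unadjusted p = 0.179 each). The HO minus HE difference was 0.45 ± 0.22, and 0.12 with the second HO array moved to HE. The HE minus WT difference was 0.05 ± 0.22.

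**Figure D2:**
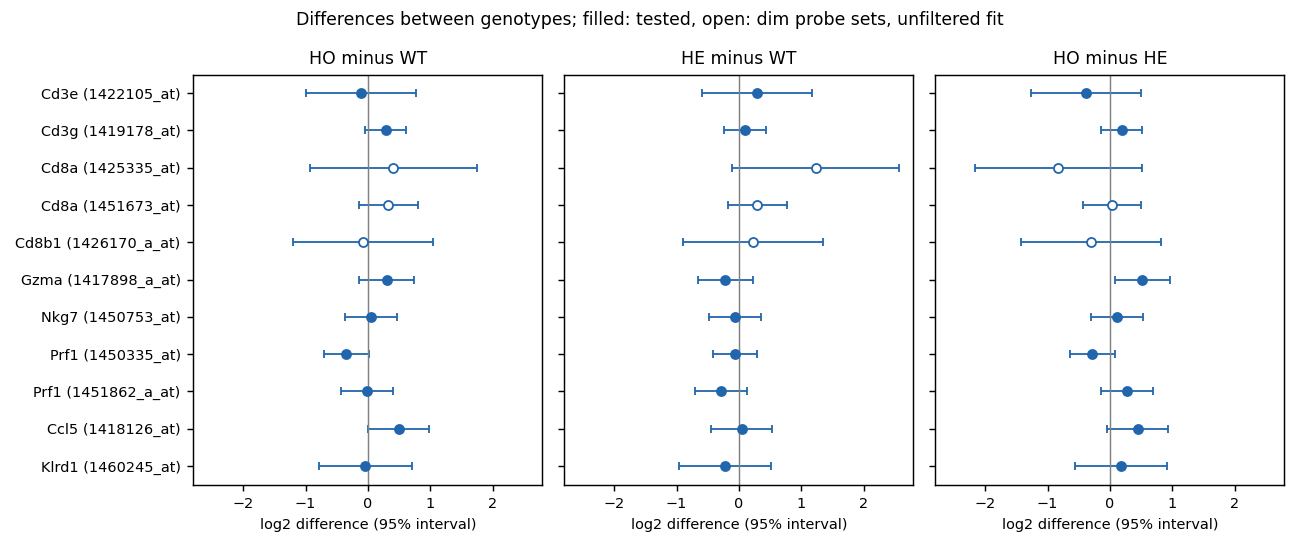
Log2 differences (horizontal axis) with 95% intervals for the 11 member probe sets in the 3 comparisons of genotypes, filled for probe sets tested and open for the dim ones from the fit without the filter. The intervals of Gzma in HO minus HE (0.08 to 0.96) and of Ccl5 in HO minus WT, which begins at 0.00, are the ones that do not cross 0.

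Read over the 8 tested probe sets, no comparison of genotypes called a member. For HO minus WT, 0 of 8 passed an adjusted p of 0.05, as did 0% of the 13576 probe sets. At an unadjusted p under 0.05 the count was 1 of 8 (Ccl5) against a background of 4.49%. With the replicate number as a block it was 0 of 8, where 808 of the 13576 were under 0.05. Of the 8, 1 (Prf1 at 1450335_at) did not overlap between the groups against 8.88%. That probe set passed the filter through its HE and WT values, with its HO mean below it. Higher values in HO than in WT were found for 4 of 8, against 48.8% of all, for 5 after quantile normalization and for 6 after median centring, since the signs of Klrd1 and of Prf1 at 1451862_a_at turned with the scaling, and the median difference was 0.02 against 0.00 for all.

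For HE minus WT, 0 of 8 passed an adjusted p of 0.05 against 0%, and 0 of 8 had an unadjusted p under 0.05 against 3.11%. The groups overlapped for all 8, whereas 7.7% of all probe sets did not overlap. The median was -0.06 against -0.01 for all, and 3 of 8 were higher in HE, against 47.8% of all. HO minus WT and HE minus WT share the 3 WT arrays, so their values are not independent.

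For HO minus HE, 0 of 8 passed an adjusted p of 0.05 against 0%. At an unadjusted p under 0.05 the count was 1 of 8 (Gzma) against 2.56%, and 2 of 8 (Gzma and Prf1 at 1451862_a_at) did not overlap against 6.66%. The median was 0.18 against 0.01 for all, and 6 of 8 were higher in HO, against 51.4% of all. With HO array 2 moved to HE, 4 of 8 were higher, the median was 0.05, and the member at an unadjusted p under 0.05 was Cd3e in place of Gzma. The moderated F test over the 3 genotypes gave 0 of 8 at an adjusted p of 0.05 against 0%, and 0 of 8 at an unadjusted p under 0.05 against 3.09%, with the lowest unadjusted p at 0.070 for Gzma.

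The differences were also taken within each replicate number, which holds 1 array of each genotype. For Ccl5 the HO minus WT log2 difference was -0.30, 0.89 and 0.89 within numbers 1, 2 and 3, and for Gzma it was -0.40, 0.39 and 0.91. For Cd3e it was -1.28, 1.25 and -0.28, so that the sign differed between numbers for all 3 genes. Prf1 at 1450335_at was negative in all 3, at -0.08, -0.76 and -0.19. HO minus HE of Gzma was positive in all 3, at 0.20, 0.59 and 0.77. Since a number alone has no spread within a genotype, it was also used as a block in the model. With the replicate block, Ccl5 in HO minus WT had an unadjusted p of 0.051 (95% interval -0.00 to 0.99) and an adjusted p of 0.826, and Gzma in HO minus HE had 0.036 and 0.998.

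Across replicate numbers, Nkg7 had the lowest p of the tested members. Its intensities were 1277.1, 1285.1 and 1145.5 on the arrays numbered 2 (HO, HE, WT), against 891.7, 837.3 and 1103.1 on those numbered 1. The 2 sets do not overlap, and the difference, number 2 minus number 1, was 0.40 ± 0.15 on the log2 scale (SE, unadjusted p = 0.026, adjusted p = 0.373). It ran from 0.30 (without HO array 1) to 0.57 (without WT array 1) with 1 array left out. The arrays of a number also share the first number of their source names, whose meaning the labels do not give. It was the 1 of 8 that did not overlap in this comparison, where 16% of all probe sets did not. In the F test over the 3 replicate numbers, 0 of 8 passed an adjusted p of 0.05 against 0.0147%, and 0 of 8 an unadjusted p under 0.05 against 12%. The dim Cd8a probe set 1425335_at had a number 2 minus number 1 difference of 1.18 ± 0.36 in the fit without the filter (unadjusted p = 0.021, adjusted p = 0.455).

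Without regard to replicate number, the highest correlations among the members joined Ccl5 to Gzma and to Nkg7. Among the 21 pairs of the 7 tested genes, each at its brightest probe set, 18 had a positive Pearson r over 9 arrays, with a median of 0.20 and a range of -0.44 to 0.76. The highest was Gzma with Ccl5 (r = 0.76, exact two-sided permutation p = 0.019, adjusted over the 21 pairs 0.397; rho = 0.55, p = 0.133). Without the 2 arrays farthest from the median of Gzma (HO 3 and WT 3), its r was 0.62. Nkg7 with Ccl5 followed (r = 0.68, exact permutation p = 0.042, adjusted 0.443, with rho = 0.65, exact permutation p = 0.067). Without the 2 arrays farthest from the median of Nkg7 (HE 1 and HO 1), that r was 0.68. Taken as deviations from the replicate number means, r was 0.89 for Gzma with Ccl5, 0.81 for Gzma with Nkg7, 0.80 for Nkg7 with Klrd1 and 0.71 for Nkg7 with Ccl5, so that the order of the pairs differs. After adjustment 0 of the 21 pairs passed 0.05. The arrays share their scaling, and HO lungs 2 and 3 lie at the upper end of both pairs. Neither r with 2 arrays left out was without both of these lungs, so dependence on them was not tested.

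**Figure D3:**
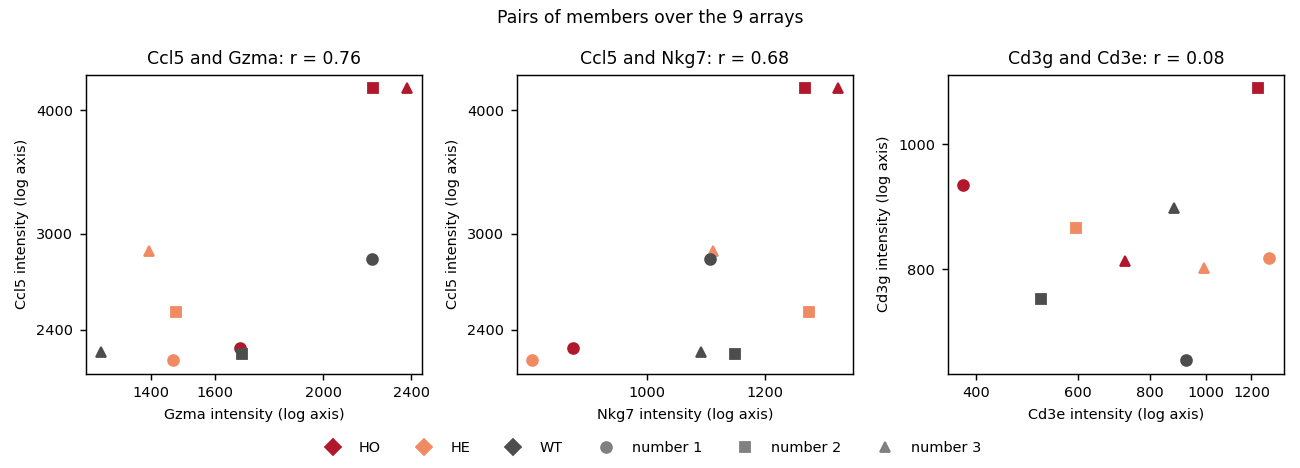
Intensity of 1 member against another over the 9 arrays (both axes logarithmic), coloured by genotype with a symbol for each replicate number. HO lungs 2 and 3 sit apart along the Ccl5 axis for Ccl5 with Gzma (r = 0.76) and Ccl5 with Nkg7 (r = 0.68). Along the Gzma axis WT lung 1 (2214.9) lies beside HO lung 2 (2216.1). Along the Nkg7 axis HE lung 2 (1285.1) lies beside HO lung 2 (1277.1). Cd3g and Cd3e scatter (r = 0.08).

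Most of the highest values of the members fell on 2 HO arrays, while the lowest values were spread over several arrays. Of the 11 probe sets, 4 were highest on HO lung 2 and 3 on HO lung 3, against 0 on HO lung 1, WT lung 2 and WT lung 3. The same tally over all probe sets is not given here. The lowest value fell on WT lung 1 for 3 probe sets and on HO lung 1, HO lung 2 and HE lung 1 for 2 each.

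Among other T cell genes, of 43 listed, 16 were tested, and 0 passed an adjusted p of 0.05 in any comparison of genotypes. HO minus WT was higher for 9 and lower for 7 (median 0.02, against 0.00 over 8184 genes), HE minus WT for 6 and 10 (median -0.10, against -0.01), and HO minus HE for 10 and 6 (median 0.05, against 0.02). Icos, a costimulatory receptor of activated T cells, had 523.9, 643.8 and 603.7 in HO lungs and 659.1, 915 and 756.8 in WT lungs (log2 difference -0.39 ± 0.16, unadjusted p = 0.032, adjusted p = 0.992). Every HO lung was below every WT lung for Icos, and 8.88% of the 13576 probe sets tested also did not overlap, in either direction. Icos was the 1 of 16 at an unadjusted p under 0.05 for HO minus WT. At that threshold 140 of 8184 genes were higher and 207 lower. The difference of Icos was -0.26 without WT array 2 (unadjusted p = 0.136), -0.30 without HO array 1 (0.114) and -0.34 after quantile normalization (0.069). Gata3, a transcription factor of helper T cells and of other lung cells, had 532.5, 805.4 and 504.3 in HO lungs and 278, 507.7 and 430.3 in HE lungs (0.61 ± 0.24, unadjusted p = 0.026, adjusted p = 1). The 2 groups of Gata3 overlap, and the difference was 0.40 without HO array 2, 0.36 without HE array 1 and 0.14 with HO array 2 moved to HE. Gata3 passed the filter on low values (8.90) through its HO and WT means, 9.23 and 8.96, with its HE mean log2, 8.62, below it. It was the 1 of 16 at an unadjusted p under 0.05 for HO minus HE. Over 8184 genes, 107 were higher and 80 lower at that threshold. Cd3d, the neighbour of Cd3e and Cd3g and a chain of the same receptor, had 1188.3, 1344.5 and 1034 in HO lungs, 1004.4, 1180.9 and 1073.2 in HE lungs, and 491.3, 1105.9 and 1305.6 in WT lungs. WT lung 1 was the low array there, as it was for Cd3g.

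Of 41 other NK and cytotoxic granule genes, 17 were tested and 0 passed an adjusted p of 0.05 or an unadjusted p under 0.05 in the comparisons of genotypes. At that unadjusted p, 140 of 8184 genes were higher and 207 lower for HO minus WT. The counts were 89 and 172 for HE minus WT, and 107 and 80 for HO minus HE, so few of 17 would be reached at these shares. HO minus WT was higher for 6 and lower for 11 (median -0.06), HE minus WT for 6 and 11 (median -0.08), and HO minus HE for 7 and 10 (median -0.05). Over the 8184 genes these splits were 4094 and 4090, 3771 and 4413, and 4442 and 3742. The lowest p was that of Ncr1, which encodes the NK receptor NKp46, in HE minus WT (-0.63 ± 0.29, unadjusted p = 0.052). Genes of MHC class I and of ligands for NK receptors were tested at 9 of 17, with medians of 0.03 for HO minus WT, -0.02 for HE minus WT and 0.09 for HO minus HE. Of the receptors of Ccl5 and other chemokines that attract T cells, 2 of 11 were tested, Cxcl16 and Ccl4, with a median of -0.02 for HO minus WT, -0.05 for HE minus WT and 0.03 for HO minus HE. None of these genes passed an adjusted p of 0.05.

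Markers of neutrophils differed widely between arrays. The median of 7 tested neutrophil markers, of 12 listed, relative to the WT mean was 0.24, -0.90 and -0.64 on HO arrays 1, 2 and 3, -0.44, 0.34 and 1.13 on HE arrays, and -0.06, 0.54 and -0.27 on WT arrays. HO lungs 2 and 3, which had the highest Ccl5, were thus the lowest for neutrophil markers. Their summed intensity ran from 9588 to 26790.3 in HO lungs, 12926.3 to 63598.5 in HE lungs and 11460.3 to 47352.7 in WT lungs, and S100a8, a defining neutrophil gene, lay between 3546.1 and 28646.6 over the 9 arrays. The part of neutrophil content in the Ccl5 and Gzma differences was not tested. The medians of the neutrophil markers by genotype were -0.24 for HO minus WT (0 of 7 higher), 0.32 for HE minus WT (5 of 7 higher) and -0.67 for HO minus HE (1 of 7 higher), with 0 of 7 at an adjusted p of 0.05. The median of 11 tested B cell markers, of 17 listed, was -0.02 for HO minus WT, -0.14 for HE minus WT and 0.00 for HO minus HE.

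**Figure D4:**
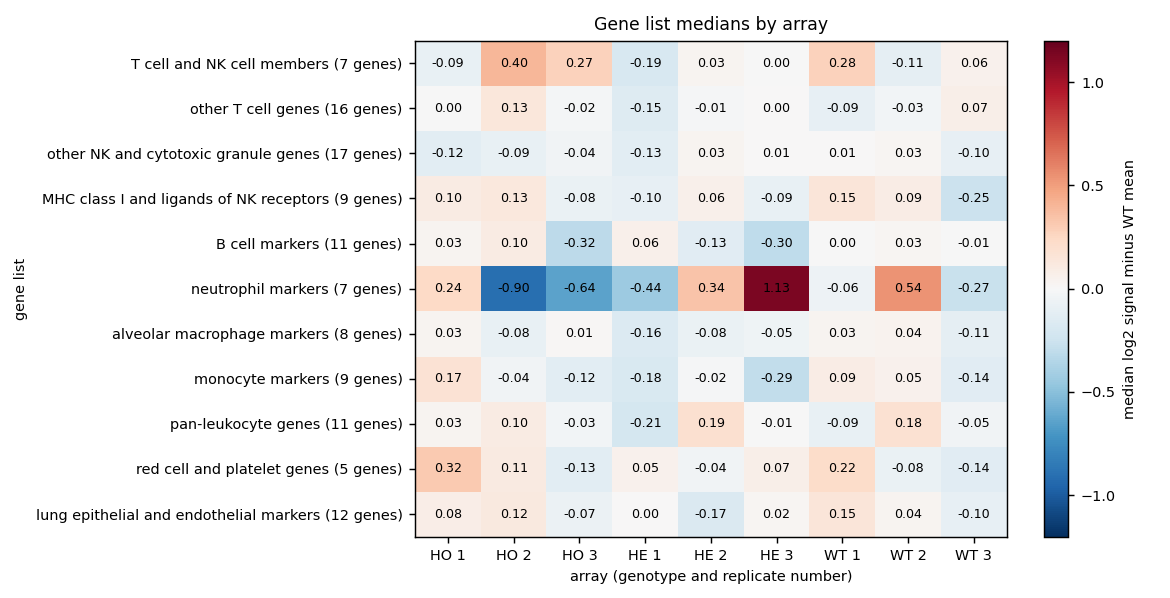
Median log2 signal minus the WT mean of each gene list (rows) on each array (columns), from blue (lower) to red (higher). The members are highest on HO 2 (0.40), WT 1 (0.28) and HO 3 (0.27), the neutrophil markers are lowest on HO 2 and HO 3 (-0.90 and -0.64), and the other T cell and NK cell lists stay between -0.15 and 0.13.

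Genes were then ranked by how alike their pattern was to that of the members, as the mean Pearson r with the 7 tested members over 9 arrays, among 8177 genes. The 10 most alike were Avpr1a (0.51), A430005L14Rik (0.49), Sae1 (0.49), Ppp1r21 (0.49), Pde9a (0.49), Rara (0.48), Spn (0.48), Itgax (0.48), Cyb5d1 (0.48) and Ndufs5 (0.48). Spn encodes CD43, a surface protein of T cells and other leukocytes, and Itgax encodes CD11c of dendritic cells and macrophages. None of the 10 belonged to a list used here. The median mean r was 0.01 over all genes, 0.02 over other T cell genes, 0.00 over other NK and granule genes, and -0.39 over neutrophil markers. These are descriptions over 9 arrays that share their scaling. The members correlated weakly with each other (median r = 0.20), which limits how high a mean r with all 7 can be. The mean r is therefore not on the scale of a single r. Whether a maximum of 0.51 is high among so many genes was not tested.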

How the data were processed

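Lung RNA was hybridised to Affymetrix mouse 430A arrays, 3 each for HO, HE and WT. The deposited table gives 1 linear intensity per probe set and array, which the authors had scaled: from the values, the mean without the lowest and highest 2% is about 1500.4 on every array. The program that summarised the probes is not named by the labels. Arrays have no read depth, so their number limits the precision.

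Values under the 5th percentile (25.5) were set to it before log2 was taken. The 64 control probe sets were dropped, as were those whose log2 mean lay below the 40th percentile (8.90), leaving 13576. Group means over all 9 arrays were fitted with limma 3.58.1 (lmFit, eBayes) in R 4.3.3, with Benjamini-Hochberg adjustment over all probe sets tested and a threshold of 0.05. Replicate numbers were tested in a model with genotype. Correlations used exact permutations (scipy 1.17.1). The functions were tested on simulated data. Gene symbols come from the platform annotation, and promoters from RefSeq (GRCm38.p6).

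Between HO and WT arrays of numbers 1, 2 and 3, r of the deviations from group means was 0.19, 0.14 and 0.28 over probe sets. The numbers, taken from the titles, thus met the criterion used for pairing HO with WT. The main fit nevertheless left the numbers out for every comparison of genotypes, and the replicate block was run as an alternative. By that criterion (every r over 0.1) numbers paired neither HE with WT (lowest 0.04) nor HO with HE (lowest 0.03). Each number goes with 1 first number of the source names (3, 9 and 11 for numbers 1, 2 and 3), whose meaning the labels do not give.

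The members and gene lists were chosen with earlier results of these data known. The rule for naming took all members, up to 4 genes of lowest p per comparison from each list, and the 10 genes most alike. Not every gene under this rule is named in the text, and none of the B cell list is. Genes given for their level, and those of the last section, were named outside the rule. The alternatives were quantile normalization, median centring, other filters, the replicate block, HO replicate 2 counted as HE, and each array left out.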

Additional observations from a re-analysis of the deposited data

How the results depend on the processing

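No member passed an adjusted p of 0.05 in the comparisons of genotypes or replicate numbers under any alternative run, and 0 of 21 pairs passed after quantile normalization or as deviations from the replicate number means. Over all probe sets, the genotype comparisons called 0, but without the filter the F test over genotypes, HO minus HE, and HE minus WT called 2 each. Leaving out 1 array gave 0 to 1 calls for HO minus WT (1 without WT replicate 1), for HE minus WT and for the F test over genotypes. The F test over replicate numbers called 2, against 1 with the filter at the 60th percentile, after median centring or after quantile normalization, 0 without the filter or with HO replicate 2 counted as HE, and 0 to 1 with an array left out. With the replicate block, HO minus WT had 0 adjusted calls and 808 at an unadjusted p under 0.05 (610 without it), and the block changed no adjusted call of a member. At an unadjusted p under 0.05, HO minus HE of Gzma was lost without HO replicate 2, HO replicate 3 or HE replicate 3, and also where the second HO array was moved to HE. HO minus WT of Ccl5 was lost at that threshold after quantile normalization, without the filter and with the replicate block. It was also lost with HO replicate 2 counted as HE. With 1 array left out, it held only without HO replicate 1 or WT replicate 1. HO minus WT of Cd3g came under 0.05 after quantile normalization, after median centring, and without HO replicate 3 or WT replicate 3. That of Prf1 at 1450335_at did so without HO replicate 1 or HE replicate 2, and that of Gzma without WT replicate 1. HE minus WT did so for Gzma without WT replicate 3 and for Prf1 at 1451862_a_at without WT replicate 2. HO minus HE did so for Ccl5 without HO replicate 1 and for Cd3e with HO replicate 2 counted as HE.

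Small differences changed sign. With HO replicate 2 counted as HE, HO minus WT was -0.022 for Nkg7 and 0.26 for Klrd1, and HO minus HE was -0.032 for Cd3g and -0.021 for Nkg7. HO minus WT of Prf1 at 1451862_a_at was 0.040 after quantile normalization and 0.036 after median centring, and that of Klrd1 was 0.014 after median centring. With 1 array left out, HO minus WT ran from -0.51 to 0.33 for Cd3e, -0.059 to 0.24 for Nkg7, -0.25 to 0.12 for Prf1 at 1451862_a_at and -0.46 to 0.26 for Klrd1. HE minus WT ran from -0.048 to 0.15 for Ccl5, -0.19 to 0.013 for Prf1 at 1450335_at and -0.21 to 0.10 for Nkg7. HO minus HE ran from -0.80 to 0.048 for Cd3e, -0.050 to 0.31 for Nkg7 and -0.24 to 0.48 for Klrd1. The cause was not tested. The dim probe sets of Cd8a and Cd8b1 have values only without the filter, and some members have none with the filter at the 60th percentile.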

Other observations

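Klrd1 was highest on HO lung 3, and the 17 other NK and cytotoxic granule genes tested were looked at for the array on which each was highest. These arrays were spread over all 9, with 1 to 3 genes each. Ncr1 and Klrk1, which encode activating receptors of NK cells, were highest on HO lung 3, like Klrd1. Hcst, the signalling partner of Klrk1, and Cd160 were highest on HO lung 2. Klrb1b and Klrg1 were highest on HE lung 3, and Eomes, a transcription factor of NK cells, was highest on WT lung 3. Ccl4, Il15 and Il15ra were highest on HE lung 2, and Tyrobp, Fcer1g and Srgn, which other leukocytes also express, on WT lung 2. The tally was made after the values had been seen and is a description.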
